A study of Mus with 9 samples.

Results

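The Slc25 genes encode the mitochondrial carrier family, and the members described here are the 47 protein-coding genes of the deposited table whose symbol starts with Slc25a, out of 54532 genes. Of these, 41 had enough counts for testing among 15902 genes tested. Kidney RNA was sequenced from 9 male C57BL/6 mice, each of which had 1 kidney removed (unilateral nephrectomy) at 18 months of age. The 3 mice of the 18 mo group were killed 1 week after surgery and received no injections. The 3 mice of the 21 mo group were injected intraperitoneally with saline for 12 weeks, and the 3 mice of the 21 mo/O304 group with O304 at 10 mg/kg/day for the same 12 weeks. O304 is a small molecule that activates AMP-activated protein kinase (AMPK), which senses a shortage of ATP in the cell. The 18 mo group thus differed from the later groups in age, in time after surgery and in not being injected, and these effects cannot be told apart. O304 and saline were compared at the same age. RNA came from kidney tissue, which holds many cell types.

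Mitochondrial carriers are small proteins of the inner mitochondrial membrane that pass metabolites, nucleotides, cofactors and ions between the cytosol and the matrix, most of them by exchange. They supply phosphate and ADP for ATP synthesis, export ATP, and move the acids of the citric acid cycle, amino acids, acylcarnitines, coenzymes and iron. In the kidney, the cells of the proximal tubule are rich in mitochondria and depend on oxidative metabolism for reabsorption.

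Libraries held 15636378 to 18396725 counts on genes, and 1 count corresponded to 0.0458 to 0.0669 CPM, that is, counts scaled to library size with TMM normalization. Spread between mice was unequal, with a biological coefficient of variation of 18.1% among the 18 mo mice, 44.2% among the 21 mo mice and 20.6% among the 21 mo/O304 mice. All 10 markers of proximal tubule listed here were detected in every library. Their summed CPM lay between 30696 and 37985 in the 18 mo mice and between 35972 and 41487 in the 21 mo/O304 mice. In the 21 mo group it was 30299 in mouse 1, 7875 in mouse 2 and 1639 in mouse 3. A single marker, Kap, was the largest part of the sum in every library but mouse 3 of the 21 mo group. Its CPM was 17968 to 24573 in the 18 mo mice and 24241 to 28875 in the 21 mo/O304 mice. In mice 1 to 3 of the 21 mo group Kap had 18931.5, 2627 and 175 CPM. Mice 2 and 3 of that group therefore stood apart from the other 7 libraries, and values with mouse 1 as the only 21 mo library are given beside the log2 fold changes and medians that rest on this group.

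Carrier genes took 0.596% to 0.643% of all counts in the 18 mo mice. Their share was 0.534%, 0.495% and 0.399% in mice 1, 2 and 3 of the 21 mo group, and 0.552% to 0.563% in the 21 mo/O304 mice. The groups did not overlap in this share of counts. Levels between genes were compared in FPKM, fragments scaled to gene length and library size. As a share of summed FPKM, carriers took 0.466% to 0.499% in the 18 mo mice. In that share the 21 mo mice (0.414%, 0.403% and 0.318%) and the 21 mo/O304 mice (0.415%, 0.398% and 0.401%) overlapped. Slc25a5, which encodes the adenine nucleotide translocator ANT2, stood highest with a mean of 531 FPKM over the 9 libraries. It was followed by Slc25a39 (a carrier needed for glutathione import) with 230 FPKM, Slc25a3 (the phosphate carrier) with 158 FPKM, Slc25a10 (the dicarboxylate carrier) with 124 FPKM and Slc25a4 (the translocator ANT1) with 112 FPKM. These 5 genes held 63.9% to 68.6% of the summed carrier FPKM in every library. Next came Slc25a11 (the oxoglutarate carrier) with 74.7 FPKM, Slc25a1 (the citrate carrier) with 58.8 FPKM and Slc25a17 (a peroxisomal carrier of cofactors) with 38.6 FPKM. The plot of levels by mouse gives the order of all tested members.

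**Figure D1:**
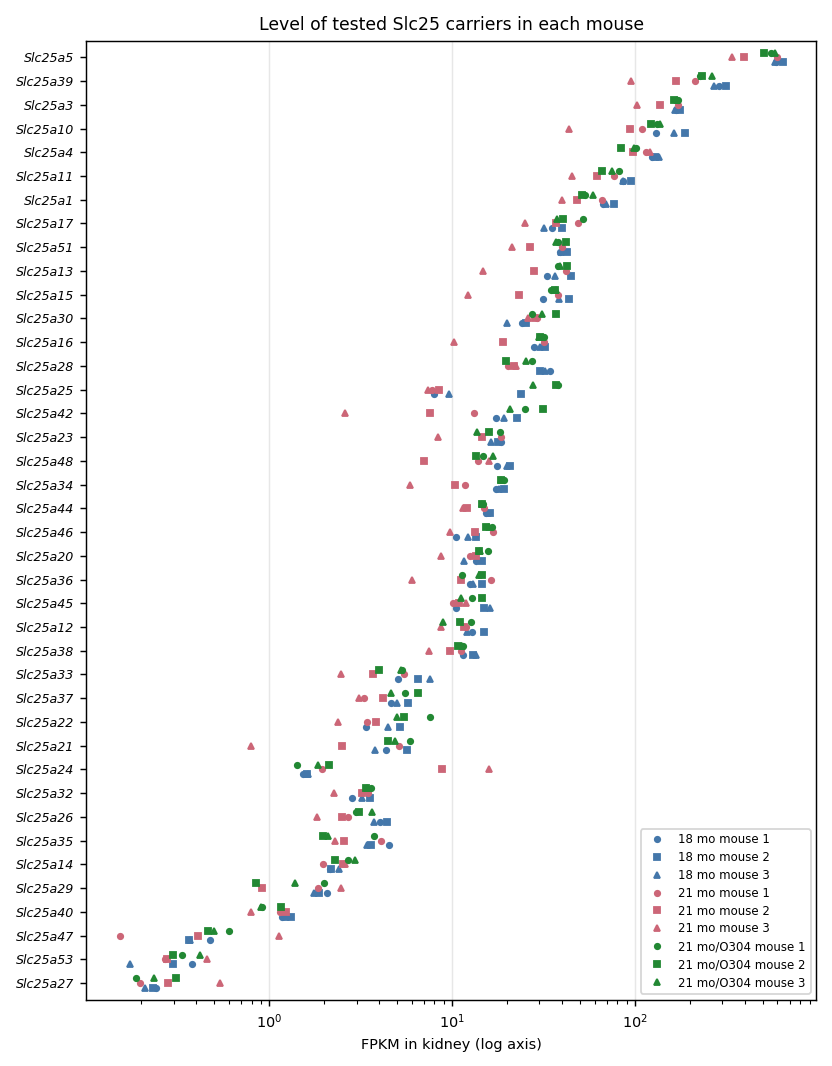
FPKM of all but 1 of the 41 tested Slc25 carriers on a log axis, with 1 point per mouse and genes ordered by mean level. Slc25a5 (mean 531 FPKM) stands at one end and Slc25a27 (0.27 FPKM) at the other, and neighbours in the order overlap for most genes.

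Slc25a5 exceeded Slc25a39 in 9 of 9 libraries, and Slc25a4 exceeded Slc25a11, Slc25a11 exceeded Slc25a1, and Slc25a1 exceeded Slc25a17 in 9 of 9 as well. Slc25a39 was above Slc25a3 in 8 of 9 and Slc25a3 above Slc25a10 in 8 of 9. Slc25a10 was above Slc25a4 in only 6 of 9 libraries, and Slc25a17 was above Slc25a51 (the NAD carrier) in 5 of 9. These 2 orders differed between groups. Slc25a10 was above Slc25a4 in every 18 mo and 21 mo/O304 mouse and below it in every 21 mo mouse. Margins were narrow in mouse 1 of the 18 mo group and in mice 1 and 2 of the 21 mo group. Slc25a17 was below Slc25a51 in every 18 mo mouse, above it in every 21 mo mouse and on both sides in the 21 mo/O304 mice. Mean levels were at least 10 FPKM for 27 members and at least 1 FPKM for 38.

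The 6 members that were not tested had few or no counts. Slc25a43 had 73 counts over the 9 libraries, Slc25a18 24, Slc25a2 7 and Slc25a31 2, while Slc25a54 and Slc25a41 had 0. Slc25a31 encodes the adenine nucleotide translocator of testis, and Slc25a2 encodes an ornithine carrier. Counts of 0 here allow up to 3 counts in a library, and this limit covers counting error only. Several members lie side by side in the genome (GRCm38 coordinates as in the deposited table). Slc25a54 (chr3:109080469-109116687) lies next to Slc25a24 (chr3:109123149-109168457), Slc25a41 (chr17:57032773-57041654) next to Slc25a23 (chr17:57043711-57059863), and Slc25a43 (chrX:36743659-36777202) next to Slc25a5 (chrX:36795651-36798807). In each of these pairs the first gene had at most 21 counts in a library and the second was tested. Slc25a29 (chr12:108825873-108835883) and Slc25a47 (chr12:108836046-108856815) are also neighbours, on opposite strands, and both were low, with means of 1.68 and 0.497 FPKM. Of the 41 tested members, 20 overlap another annotated gene, and whether reads were assigned by strand is not stated, so their counts may include reads of the other gene. A pseudogene of Slc25a5 on chromosome 14 had 0 to 13 counts.

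The comparison of the 21 mo with the 18 mo group asks how carrier expression differs between 18 and 21 months, with recovery from surgery in between. Most carriers were lower in the 21 mo mice, but none passed the test. The fitted log2 fold change was below 0 for 33 of 41 members, against 47.3% of all genes tested, and above 0 for 8, against 52.7%. Its median was -0.42 over the members against 0.03 over all genes. The members' middle range ran from -0.62 to -0.18. With edgeR, 0 of 41 members passed an adjusted p of 0.05, as did 3 of all 15902 genes (0.0189%). At an unadjusted p under 0.05, 14 members were lower, against 12% of all genes, and 1 was higher, against 14%, which makes 15 in either direction, against 26.1%. The 3 libraries of the 21 mo group lay below all 3 of the 18 mo group for 15 members (15.3% of all genes) and above them for 2 (13.5%). DESeq2 called 9 members, of which 8 were lower (6.63% of all genes) and Slc25a24 was higher (7.72%). In bulk tissue, fewer cells of a type and less RNA per cell cannot be told apart.

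These counts depended on mice of the 21 mo group. Without mouse 1 edgeR called 19 members, 18 of them lower (11.9% of all genes) and Slc25a24 higher (13.6%), and without mouse 3 it called 1, Slc25a34, as lower (0.428%). With mouse 1 as the only 21 mo library, 28 of 41 members were lower, the median was -0.12 and 0 members passed. Limma voom with sample weights called 27 members (25 lower, against 26.6% of all genes, and 2 higher, against 26.3%), and it gave mouse 2 of the 21 mo group a weight of 9.11 and mice 1 and 3 weights of 0.223 and 0.132. Limma-trend on FPKM called 0 of 38.

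The mice of the 21 mo group differed among themselves. Relative to the mean of the 18 mo group, the median over the 41 members was -0.11 log2 units in mouse 1, -0.42 in mouse 2 and -0.72 in mouse 3. In the 21 mo/O304 group it was -0.06, -0.02 and -0.06, close to the values of the 18 mo mice themselves (-0.04, 0.10 and -0.04). Mouse 1 was the highest and mouse 3 the lowest of the 21 mo group for 25 of 41 members, against 28.8% of all genes. In mouse 3, 33 members lay under the range of the 18 mo group, against 40.5% of all genes. The deviation of each member in each mouse is plotted.

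**Figure D2:**
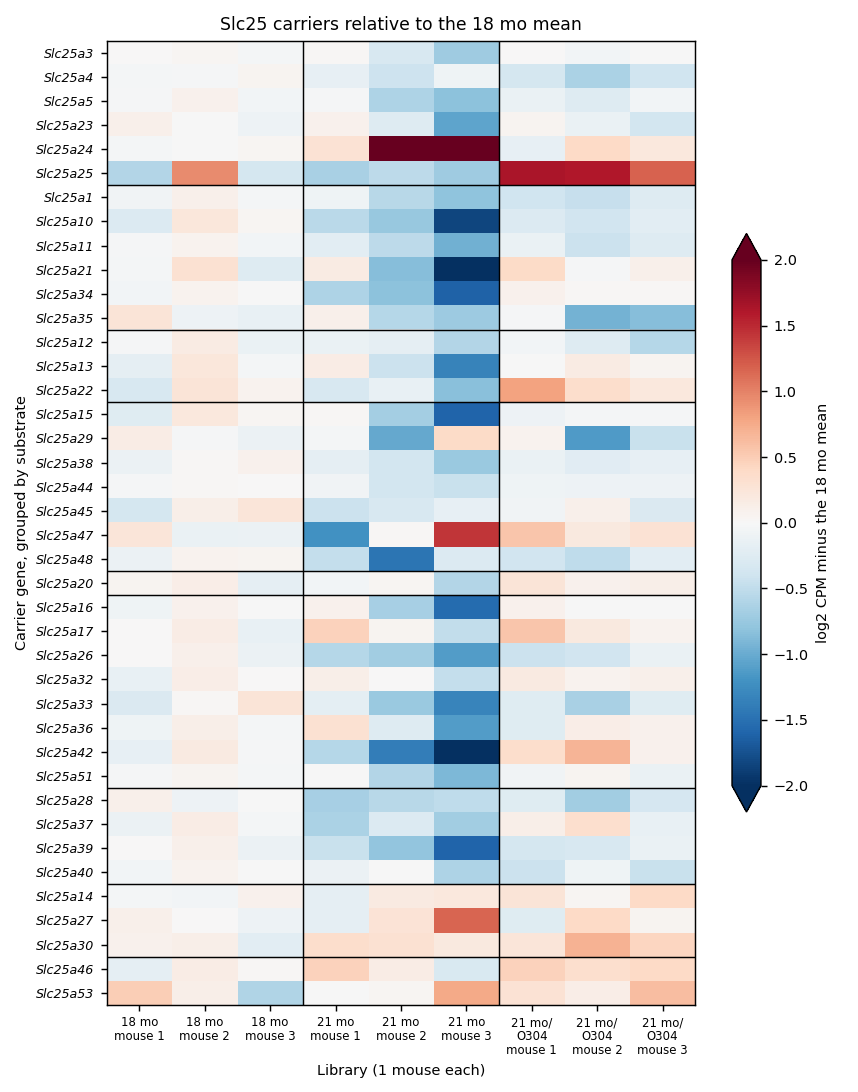
Deviation of all but 1 of the 41 tested carriers from the mean of the 18 mo group in each of the 9 mice, in log2 CPM, with genes grouped by substrate. Over all 41, the medians of the 21 mo mice are -0.11, -0.42 and -0.72, and those of the 21 mo/O304 mice lie between -0.06 and -0.02.

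The group of citrate, dicarboxylate and oxoacid carriers includes the orphan carriers Slc25a34 and Slc25a35. Its median was the lowest of the substrate groups in the 21 mo mice, at -0.63 with 6 of 6 members lower. This order rested on mice 2 and 3, since with mouse 1 alone the median was -0.16 with 4 of 6 lower, and iron and glutathione carriers stood lower at -0.55. Slc25a10 exchanges malate and succinate for phosphate, and is known to be abundant in kidney and liver. Its CPM was 469, 659.8 and 579.9 in the 18 mo mice, 387, 335 and 157 in the 21 mo mice and 467, 435 and 489 in the 21 mo/O304 mice. The 21 mo mice lay below both other groups, with a log2 fold change of -0.96 ± 0.31 (SE, n = 3 and 3, adjusted p = 0.106 by edgeR). Slc25a34, an orphan carrier related to oxaloacetate carriers, stood at 48.1, 52.3 and 49.8 CPM in the 18 mo mice, at 32.6, 28.4 and 16.3 CPM in the 21 mo mice and at 52.9, 50.7 and 50.7 CPM in the 21 mo/O304 mice. Again every 21 mo mouse was below both other groups, with a log2 fold change of -0.96 ± 0.22 (adjusted p = 0.0691 by edgeR). For Slc25a11, a carrier of the malate-aspartate shuttle, CPM was 191, 205 and 188 in the 18 mo mice, 168, 135 and 99.2 in the 21 mo mice and 178, 144 and 162 in the 21 mo/O304 mice. For Slc25a1, which exports citrate for lipid synthesis, CPM was 150.0, 168 and 154, then 148, 107 and 90.1, then 119, 114 and 131 in the same order of groups. Both had their 18 mo values above all other mice. Slc25a35, also an orphan carrier, had 17.4, 13.4 and 13.0 CPM in the 18 mo mice, 15.6, 9.72 and 8.75 CPM in the 21 mo mice and 14.2, 7.45 and 7.96 CPM in the 21 mo/O304 mice, so all groups overlapped. With mouse 1 as the only 21 mo library the log2 fold change was -0.57 for Slc25a10, -0.63 for Slc25a34, -0.22 for Slc25a11 and -0.10 for Slc25a1.

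Iron and glutathione carriers were lower in 4 of 4 cases, with a median of -0.55, and with mouse 1 alone again in 4 of 4, also at -0.55. Slc25a39 is needed for glutathione import into mitochondria and for haem synthesis. Its CPM was 825, 884 and 762 in the 18 mo mice, 601, 477 and 271 in the 21 mo mice and 644, 659 and 752 in the 21 mo/O304 mice. The 3 groups were ordered with no overlap, 18 mo highest and 21 mo lowest. The log2 fold change of the 21 mo group was -0.87 ± 0.28 (adjusted p = 0.102 by edgeR), and it was -0.46 with mouse 1 alone. Slc25a28 and Slc25a37 encode mitoferrin 2 and mitoferrin 1, which import iron, the latter mainly in the red cell lineage. Slc25a28 had 53.9, 46.5 and 50.1 CPM in the 18 mo mice, 31.6, 34.1 and 35.2 CPM in the 21 mo mice and 42.5, 30.9 and 39.7 CPM in the 21 mo/O304 mice. It was lower in every mouse of both later groups (-0.58 ± 0.14 at 21 mo, adjusted p = 0.0707 by edgeR), and within the 21 mo group mouse 1 was its lowest, unlike in most members, so that mouse 1 alone gave -0.67. Slc25a37 had 29.2, 35.2 and 30.8 CPM in the 18 mo mice, 20.5, 26.1 and 19.4 CPM in the 21 mo mice and 34.3, 40.1 and 28.7 CPM in the 21 mo/O304 mice. The 21 mo mice were below both other groups, at -0.53 ± 0.17 (adjusted p = 0.101 by edgeR), and mouse 1 alone gave -0.64. Slc25a37 overlaps 4 other annotated genes, all with provisional Gm names. Summed CPM of the 5 erythroid markers ran from 22.7 to 232 in the 18 mo mice, was 882, 13.8 and 4.08 in mice 1 to 3 of the 21 mo group and ran from 31.2 to 225 in the 21 mo/O304 mice. Their part in the level of Slc25a37 was not tested.

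Cofactor and nucleotide carriers were lower in 8 of 9 cases at 21 mo, with a median of -0.56. In mouse 1 alone 5 of 9 were lower and the median was -0.02, so the difference came from mice 2 and 3. Slc25a42 carries coenzyme A into the matrix. Its CPM was 109, 138 and 119 in the 18 mo mice, 81.5, 46.5 and 16.1 in the 21 mo mice and 154, 194 and 129 in the 21 mo/O304 mice. It had the most negative log2 fold change of all members at 21 mo, -1.34 ± 0.46 (adjusted p = 0.119 by edgeR), with mouse 3 far below mouse 1. Mouse 1 alone gave -0.59. Slc25a26, the carrier of the methyl donor S-adenosylmethionine, had 20.1, 21.6 and 18.4 CPM in the 18 mo mice, 13.4, 12.3 and 9.12 CPM in the 21 mo mice and 14.8, 15.3 and 18.1 CPM in the 21 mo/O304 mice. Its log2 fold change was -0.79 ± 0.17 (adjusted p = 0.0665 by edgeR) and -0.59 with mouse 1 alone, and it overlaps the gene Lrig1. Slc25a26 shared with Slc25a39 the order 18 mo above 21 mo/O304 above 21 mo with no overlap, which 3 of 41 members and 1.02% of all genes had. Slc25a17 did not follow the others, with 104, 115 and 93.5 CPM in the 18 mo mice, 143, 108 and 74.3 CPM in the 21 mo mice and 152, 119 and 109 CPM in the 21 mo/O304 mice.

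Adenine nucleotide and phosphate carriers include the most abundant members and the 2 with the widest differences. Their median at 21 mo was -0.32, and -0.01 with mouse 1 alone. Slc25a5 had 1007, 1081 and 986 CPM in the 18 mo mice, 1009.8, 668 and 582 CPM in the 21 mo mice and 939, 860.2 and 984 CPM in the 21 mo/O304 mice. Slc25a3 had 974, 998 and 944 CPM, then 984, 782 and 592 CPM, then 979, 935 and 966 CPM in the same order. For both genes mouse 1 of the 21 mo group lay within the 18 mo range and mice 2 and 3 lay below it. Slc25a4, the translocator known from heart and muscle, had 305, 309 and 326 CPM in the 18 mo mice, 279, 235 and 297 CPM in the 21 mo mice and 247, 203 and 239 CPM in the 21 mo/O304 mice. All of its 18 mo values were above those of both later groups.

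Slc25a24 and Slc25a25 encode carriers that exchange ATP-Mg for phosphate under the control of calcium. Slc25a24 (chr3:109123149-109168457) had 5.45, 5.61 and 5.77 CPM in the 18 mo mice, 6.89, 31.3 and 56.8 CPM in the 21 mo mice and 5.001, 7.45 and 6.49 CPM in the 21 mo/O304 mice. It was the only member with a higher level at an unadjusted p under 0.05 in the 21 mo group, at 2.50 ± 0.60 (adjusted p = 0.0728 by edgeR). Mice 2 and 3 carried this difference, since mouse 1 alone gave 0.29. The same mice had the highest summed CPM of tubule injury markers, 1413, 12450.5 and 14699 in mice 1 to 3 of the 21 mo group, against 783 to 913 in the 18 mo mice. All 7 of these markers were higher in the 21 mo group at an unadjusted p under 0.05, against 14% of all genes. None was at 0 in all libraries. All 21 mo mice lay above all 18 mo mice for 4 of the 7, against 13.5% of all genes. For the rest mouse 1 did not exceed the 18 mo mice. Macrophage markers (6 genes) summed to 684, 1086 and 3319 CPM in mice 1 to 3 of the 21 mo group against 267 to 450 CPM in the 18 mo mice, and fibroblast markers (7 genes) to 140, 575 and 1389 CPM against 181 to 279 CPM. Their part in the level of Slc25a24 was not tested. Slc25a25 (chr2:32414487-32451445) had 65.5, 189 and 77.6 CPM in the 18 mo mice and 62.6, 68.3 and 60.1 CPM in the 21 mo mice. Mouse 2 of the 18 mo group stood well above the other 5 mice, and the groups overlapped.

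Here and below, members count as amino acid carriers by the grouping used here, and their substrates were not tested. Members so grouped were lower at 21 mo in 3 of 3 aspartate and glutamate carriers (median -0.43) and in 6 of 7 others (median -0.32). Mouse 1 alone gave 2 of 3 (median -0.15) and 6 of 7 (median -0.20). Slc25a38, which imports glycine for haem synthesis, had 33.0, 36.5 and 38.0 CPM in the 18 mo mice, 31.5, 27.6 and 21.3 CPM in the 21 mo mice and 32.5, 30.4 and 31.96 CPM in the 21 mo/O304 mice. Its 18 mo values were above all others, narrowly, and its log2 fold change at 21 mo was -0.42 ± 0.15 (adjusted p = 0.122 by edgeR) and -0.20 with mouse 1 alone. Slc25a22, a glutamate carrier, had 21.2, 31.7 and 27.7 CPM in the 18 mo mice and 21.1, 23.8 and 14.8 CPM in the 21 mo mice, which overlapped. The carnitine-acylcarnitine carrier Slc25a20, which brings fatty acids into the matrix, had 68.2, 71.6 and 57.9 CPM in the 18 mo mice, 62.9, 67.5 and 43.8 CPM in the 21 mo mice and 78.7, 70.0 and 71.0 CPM in the 21 mo/O304 mice. It overlapped between the 18 mo and 21 mo groups.

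Not all groups were lower. The 3 carriers related to uncoupling proteins had fitted values above 0 at 21 mo (median 0.28), and so had both tested members of the group in the outer membrane or without an assigned substrate (median 0.19). With mouse 1 alone 2 of the 3 uncoupling-related carriers were below 0 (median -0.19), and 1 of the 2 others (median 0.19). Slc25a30, known as the kidney mitochondrial carrier protein, had 115, 117 and 93.6 CPM in the 18 mo mice, 138, 133 and 124 CPM in the 21 mo mice and 128, 174 and 146 CPM in the 21 mo/O304 mice. All 18 mo mice lay below all other mice, a pattern that Slc25a30 alone had among the members and that 5.07% of all genes had. Slc25a46, a protein of the outer membrane involved in mitochondrial shape, had 47.9, 60.0 and 55.3 CPM in the 18 mo mice, 74.99, 60.0 and 44.0 CPM in the 21 mo mice and 74.2, 68.7 and 71.3 CPM in the 21 mo/O304 mice. The 21 mo mice spanned all of the 18 mo values. Fitted values and standard errors of every tested member are plotted for the 3 comparisons.

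**Figure D3:**
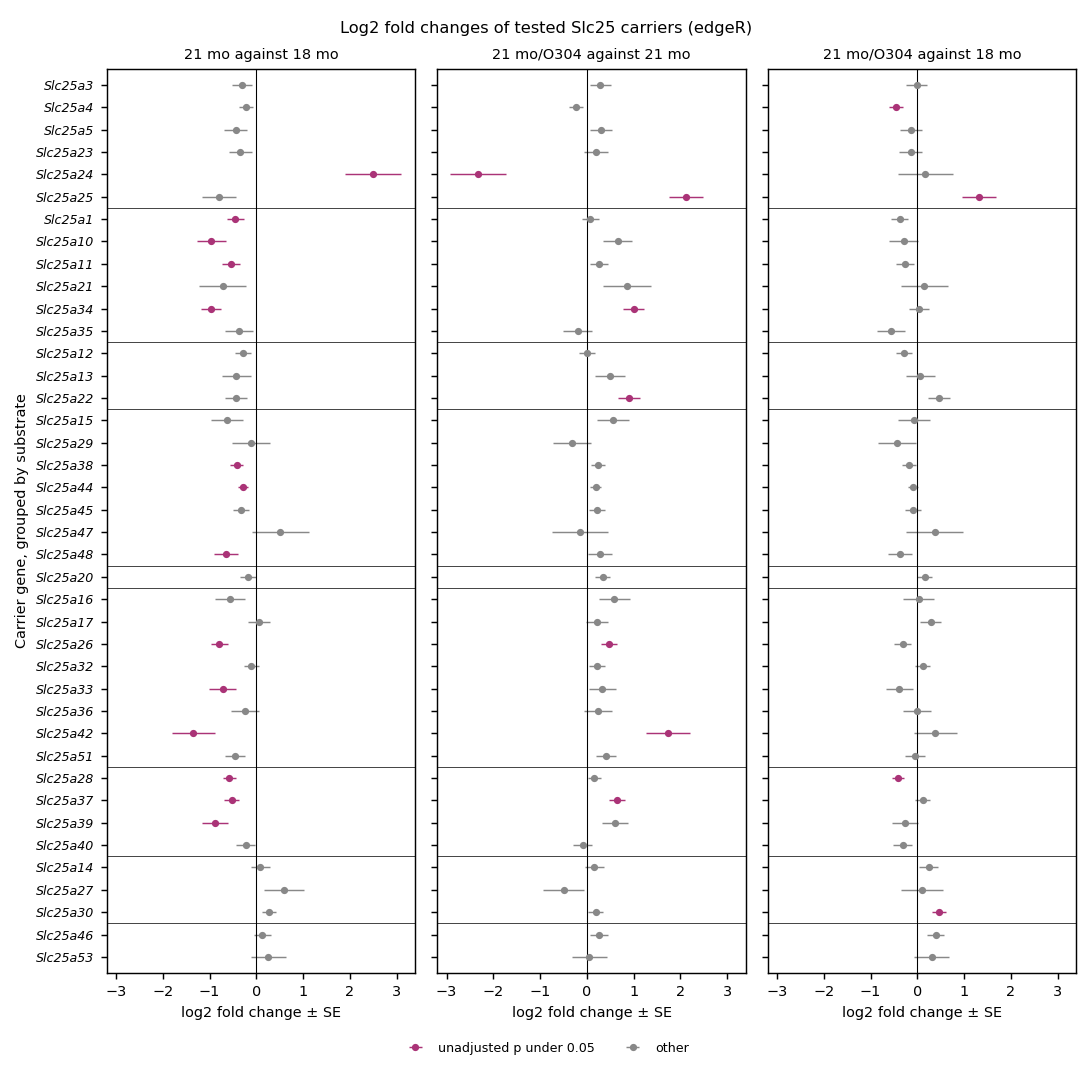
Log2 fold change with its SE for all but 1 of the 41 tested carriers in 3 comparisons by edgeR, grouped by substrate, with unadjusted p under 0.05 in colour. Points lie mostly left of 0 for 21 mo against 18 mo (33 of the 41 tested), mostly right of 0 for 21 mo/O304 against 21 mo (34 of 41), and on both sides for 21 mo/O304 against 18 mo (18 and 23).

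The comparison of the 21 mo/O304 with the 21 mo group asks what O304 does at the same age. Carriers were mostly higher in the O304-injected mice, and none passed the test. The fitted log2 fold change was above 0 for 34 of 41 members, against 48.2% of all genes, and below 0 for 7, against 51.8%, with a median of 0.25 against -0.02. EdgeR called 0 of 41 members and 0 of 15902 genes (0%). At an unadjusted p under 0.05, 6 members were higher, against 8.27% of all genes, and 1 was lower, against 12.4%, which makes 7 in either direction, against 20.7%. All O304 mice lay above all 21 mo mice for 10 members (10.8% of all genes) and below them for 0 (10.5%). DESeq2 called 6 members, of which Slc25a22, Slc25a25, Slc25a34, Slc25a37 and Slc25a42 were higher (2.09% of all genes) and Slc25a24 was lower (4.09%).

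The 21 mo group is shared with the first comparison, so a low value there enters both with opposite sign. Without mouse 1 of the 21 mo group edgeR called 12 members, 11 of them higher (10.6% of all genes) and Slc25a24 lower (12.6%). Without mouse 2 of the 18 mo group, which is in neither group but shares the fit and the filter on low counts, it called 1, Slc25a25, as higher (0.00608% of the 16447 genes then tested). With mouse 1 as the only 21 mo library, 20 of 41 members were higher and the median was -0.01. Limma voom with sample weights called 19 members, 18 of them higher (21.2% of all genes) and Slc25a24 lower (19.8%), and limma-trend on FPKM called 0 of 38.

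The log2 fold change of Slc25a25 hardly changed without mice 2 and 3 of the 21 mo group. It had 308, 301 and 223 CPM in the O304-injected mice, against 62.6, 68.3 and 60.1 CPM in the 21 mo mice. The 3 saline mice agreed closely, and every O304 mouse stood above all 6 other mice, a pattern found for 1 of 41 members and 2.74% of all genes. The log2 fold change was 2.12 ± 0.37 (n = 3 and 3, adjusted p = 0.175 by edgeR), and it was 2.15 with mouse 1 as the only 21 mo library. Over all alternatives it ranged from 1.98 to 2.25. Slc25a25 overlaps the gene Naif1. Markers of adipocytes also differed between these groups, with 5 of 5 tested markers fitted above 0 and 4 of them higher at an unadjusted p under 0.05, against 48.2% and 8.27% of all genes. The summed CPM of the 6 listed adipocyte markers was 283, 110 and 240 in mice 1 to 3 of the O304 group, 129, 55.0 and 35.3 in the 21 mo mice and 46.2 to 90.5 in the 18 mo mice. Fabp4 was the largest part of this sum in every mouse, at 147, 101 and 129 CPM in the O304 mice. It had 128, 52.5 and 30.1 CPM in the 21 mo mice and 46.0 to 89.7 CPM in the 18 mo mice. Adipoq, a defining adipocyte marker, had 372, 33 and 237 counts in the O304 mice and at most 25 counts in any other library. The O304 mouse with the lowest adipocyte sum, mouse 2, had 301 CPM of Slc25a25, and the part of adipocytes in its level was not tested.

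Slc25a24, the paralogue of Slc25a25, was the only member lower at an unadjusted p under 0.05, at -2.33 ± 0.60 (adjusted p = 0.175 by edgeR). The groups overlapped at mouse 1 of the 21 mo group, and with that mouse alone the value was -0.12. Slc25a42 was higher by 1.73 ± 0.47 (adjusted p = 0.175 by edgeR), and its O304 values of 129 to 194 CPM exceeded all saline values. Slc25a34 was higher by 1.00 ± 0.22 (adjusted p = 0.175 by edgeR), with the O304 mice between 50.7 and 52.9 CPM. Slc25a37 was higher by 0.64 ± 0.17, and Slc25a26 by 0.47 ± 0.17 (adjusted p = 0.175 and 0.198 by edgeR). With mouse 1 alone the values were 0.96 for Slc25a42, 0.66 for Slc25a34, 0.75 for Slc25a37 and 0.27 for Slc25a26, all in the same direction.

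Slc25a22, one of the glutamate carriers, had 46.6, 33.7 and 30.8 CPM in the O304 mice, above all saline mice (21.1, 23.8 and 14.8 CPM). The log2 fold change was 0.90 ± 0.23 (adjusted p = 0.175 by edgeR) and 0.81 with mouse 1 alone. Slc25a39, Slc25a10 and Slc25a20 were also higher in every O304 mouse than in every saline mouse. Their log2 fold changes were 0.61 ± 0.28, 0.66 ± 0.31 and 0.34 ± 0.17, with adjusted p = 0.251, 0.256 and 0.280 by edgeR. With mouse 1 alone they were 0.19, 0.26 and 0.22. By substrate group, cofactor and nucleotide carriers were higher in 9 of 9 cases (median 0.33), aspartate and glutamate carriers in 3 of 3 (0.50), citrate, dicarboxylate and oxoacid carriers in 5 of 6 (0.46), iron and glutathione carriers in 3 of 4 (0.39) and other amino acid carriers in 5 of 7 (0.22). Adenine nucleotide and phosphate carriers were higher in 4 of 6 cases (0.24), and Slc25a4 was one of the 2 fitted below 0. With mouse 1 alone the medians of these 6 groups, in the same order, were -0.03, -0.07, -0.03, 0.22, 0.01 and -0.12.

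**Figure D4:**
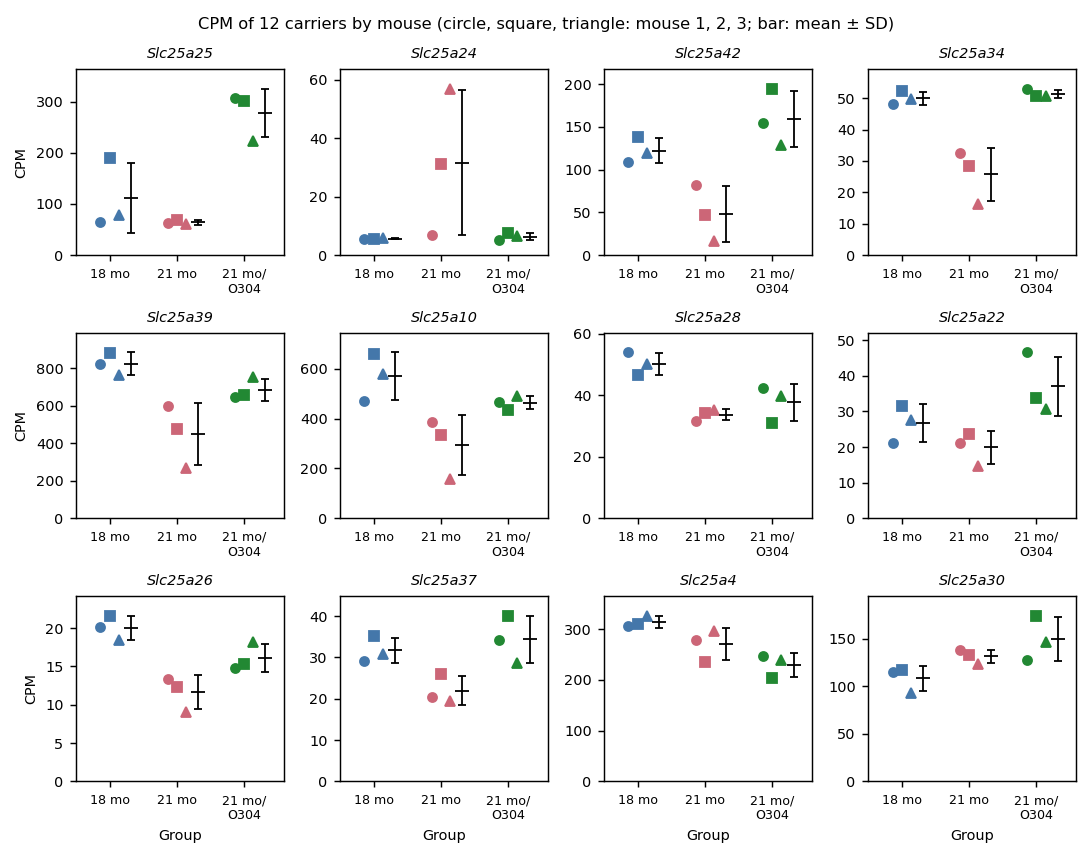
CPM of 12 carriers in each mouse, with the mean and SD of each group of 3 beside the points. Slc25a25 stands at 223 to 308 CPM in the O304 mice against 60.1 to 68.3 CPM in the saline mice, and Slc25a24 is spread from 6.89 to 56.8 CPM within the 21 mo group.

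The comparison of the 21 mo/O304 with the 18 mo group sets the treated mice beside the younger ones. Members lay on both sides, 18 above 0 (50.4% of all genes) and 23 below (49.6%), and the median was -0.05 against 0.00 for all genes. EdgeR called 0 of 41 members and 0 of 15902 genes (0%). At an unadjusted p under 0.05, 2 members were higher (4.33% of all genes) and 3 were lower (5.33%), 5 in either direction (9.66%). DESeq2 called 1 member, Slc25a25, as higher (0.585% of all genes) and 0 as lower (0.88%). Limma voom with sample weights called Slc25a25 as higher (1.04%) and Slc25a4 as lower (1.57%), and limma-trend on FPKM called 0 of 38. DESeq2 on the 6 libraries of these groups called 4, with Slc25a30 and Slc25a46 higher (2.74% of all genes) and Slc25a1 and Slc25a4 lower (3.29%). The O304 mice lay above all 18 mo mice for 3 members (13.2% of all genes) and below them for 12 (13.3%).

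Slc25a25 was higher in the O304 mice than in the 18 mo mice by 1.32 ± 0.36 (adjusted p = 0.345 by edgeR), and by 1.95 without mouse 2 of the 18 mo group. Slc25a30 was higher by 0.46 ± 0.15 (adjusted p = 0.400 by edgeR), Slc25a46 by 0.39 ± 0.18 and Slc25a22 by 0.46 ± 0.23 (adjusted p = 0.533 and 0.562 by edgeR). Only Slc25a22 overlapped between these groups. Slc25a4 had a log2 fold change of -0.45 ± 0.15 (adjusted p = 0.407 by edgeR) and Slc25a1 of -0.37 ± 0.18 (adjusted p = 0.546 by edgeR), with no overlap. Slc25a28 stood at -0.41 ± 0.14 and Slc25a26 at -0.32 ± 0.17 (adjusted p = 0.400 and 0.596 by edgeR), also with no overlap. Slc25a35 stood at -0.57 ± 0.31 (adjusted p = 0.598 by edgeR), with overlap. The 18 mo mice lay above all 6 later mice for 10 members, among them Slc25a1, Slc25a4, Slc25a11, Slc25a26, Slc25a28, Slc25a38, Slc25a39, Slc25a44 and Slc25a48, against 5.99% of all genes. The 21 mo mice lay below both other groups for 7 members, among them Slc25a10, Slc25a26, Slc25a34, Slc25a37, Slc25a39 and Slc25a42, against 5.75% of all genes.

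Paralogues that carry the same substrate were compared as the log2 ratio of their CPM within each mouse, which takes the library size out. Of 24 exact permutation tests (8 pairs in 3 comparisons, two-sided), 7 reached p = 0.1, the smallest that 3 mice against 3 allow, and the smallest adjusted value was 0.343. For Slc25a4 over Slc25a5, the 2 adenine nucleotide translocators, the ratio was -1.71 ± 0.11 (SD, n = 3) in the 18 mo mice, -1.44 ± 0.44 in the 21 mo mice and -2.02 ± 0.08 in the O304 mice. The O304 mice were below both other groups, by -0.57 and -0.31 (exact p = 0.1 each), narrowly so for mouse 1 of the 21 mo group at -1.85. In FPKM, Slc25a4 made up 16.7% to 18.8% of the sum of the pair in the 18 mo mice, 16.2% to 26.3% in the 21 mo mice and 14.2% to 15.5% in the O304 mice. For Slc25a24 over Slc25a25 the ratio was -4.11 ± 0.82 in the 18 mo mice, -1.46 ± 1.57 in the 21 mo mice and -5.43 ± 0.43 in the O304 mice. No groups overlapped, but mouse 2 of the 18 mo group at -5.05 nearly met mouse 3 of the O304 group at -5.08. Of the 21 mo mice, mouse 1 was nearest to the other groups at -3.16. The share of Slc25a24 in the FPKM of this pair was 20.1%, 51.2% and 68.4% in mice 1 to 3 of the 21 mo group, against 6.35% to 16.0% in the 18 mo mice and 3.59% to 6.26% in the O304 mice. For Slc25a39 over Slc25a40, the glutathione carriers, the ratio was 6.25 ± 0.09, 5.54 ± 0.33 and 6.30 ± 0.28, so the 21 mo mice were below both other groups (exact p = 0.1 each), with mouse 1 nearest to them at 5.91. The remaining 5 pairs, among them the mitoferrins and the aspartate-glutamate carriers Slc25a12 and Slc25a13, overlapped in all 3 comparisons. Slc25a18 over Slc25a22 is also among them, and Slc25a18 had just 1 to 6 counts in a library. The overlap of that pair therefore cannot show whether its ratio differed.

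Genes that work with the carriers were read from the same fits, and edgeR called 0 of them in any list or comparison. Over all genes tested, 47.3% were fitted below 0 at 21 mo, with 12% lower and 14% higher at an unadjusted p under 0.05. With O304 against saline 48.2% were above 0, with 8.27% higher and 12.4% lower at that p. Proteins that import carriers into the inner membrane were lower at 21 mo in 14 of 15 tested genes, 7 of them at an unadjusted p under 0.05, with a median of -0.30. Mouse 1 alone gave 12 of 15 (median -0.24). Timm13, an intermembrane space chaperone, had 120.1, 133 and 109.6 CPM in the 18 mo mice, 73.7, 63.3 and 73.5 CPM in the 21 mo mice and 74.0, 72.7 and 91.1 CPM in the O304 mice. Both later groups lay below the 18 mo group. In the O304 mice 12 of 15 import genes were fitted above the saline mice, with a median of 0.14 (0.09 with mouse 1 alone), and 10 of 15 below the 18 mo mice, against 49.6% of all genes, with a median of -0.17.

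Enzymes of haem and iron-sulphur cluster synthesis were lower at 21 mo in 10 of 12 cases (median -0.50, 5 at an unadjusted p under 0.05) and higher with O304 than with saline in 10 of 12 (median 0.42, 1 at an unadjusted p under 0.05, which is near the share over all genes). With mouse 1 alone 8 of 12 were lower at 21 mo (median -0.09) and 4 of 12 higher with O304 (median -0.02). Alad, an early enzyme of haem synthesis, had 84.9, 103.7 and 90.7 CPM in the 18 mo mice, 68.4, 53.9 and 41.5 CPM in the 21 mo mice and 84.1, 73.2 and 75.3 CPM in the O304 mice. It stood lowest in mouse 3 of the 21 mo group. Cofactor and one-carbon enzymes were lower at 21 mo in 10 of 13 cases (median -0.37), and with mouse 1 alone in 7 of 13 (median -0.0033). Coasy, the last enzyme of coenzyme A synthesis, had 262, 326 and 261 CPM in the 18 mo mice, 204, 101 and 63.7 CPM in the 21 mo mice and 238, 246 and 329 CPM in the O304 mice. The 21 mo mice were below both other groups for Coasy, as they were for the coenzyme A carrier Slc25a42.

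Carnitine acyltransferases and the carnitine uptake gene were lower at 21 mo in 5 of 6 cases (median -0.40) and higher with O304 than with saline in 5 of 6 (median 0.60, 3 higher and 1 lower at an unadjusted p under 0.05). Taking only mouse 1, it was 4 of 6 (median -0.07) and 5 of 6 (median 0.28). Cpt1a, which forms acylcarnitines at the outer membrane, had 507, 602 and 517 CPM in the 18 mo mice, 518, 461 and 288 CPM in the 21 mo mice and 669, 635 and 603 CPM in the O304 mice. All O304 mice were above all other mice, the lowest of them narrowly. Enzymes of the malate-aspartate and glycerol phosphate shuttles were lower at 21 mo in 6 of 7 cases (median -0.37) and higher with O304 in 5 of 7 (median 0.39), and with mouse 1 alone in 4 of 7 (median -0.05) and 5 of 7 (median 0.05). Enzymes of citrate and dicarboxylate metabolism were lower in 9 of 10 cases (median -0.37) and higher with O304 in 9 of 10 (median 0.41), with 1 of 10 at an unadjusted p under 0.05 in each comparison, as lower. Mouse 1 alone gave 5 of 10 lower at 21 mo (median -0.0051) and 3 of 10 higher with O304 (median -0.05).

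Among 9 tested enzymes of ornithine, arginine and glutamate, 3 were higher and 3 lower at 21 mo at an unadjusted p under 0.05, against 14% and 12% of all genes. Their median was -0.24, and 0.37 with mouse 1 alone. Arg2, the mitochondrial arginase, had 4.34, 1.11 and 3.00 CPM in the 18 mo mice, 10.9, 24.9 and 39.3 CPM in the 21 mo mice and 9.36, 2.44 and 0.764 CPM in the O304 mice. The 21 mo mice stood above all others. Other transporters of the inner membrane were lower at 21 mo in 12 of 17 cases (median -0.30), and higher with O304 than with saline in 13 of 17 (median 0.31). Taking only mouse 1, it was 8 of 17 (median 0.02) and 6 of 17 (median -0.08). The 4 outer membrane channels had a median of 0.09 at 21 mo and of -0.06 with O304, and of 0.02 and -0.13 with mouse 1 alone.

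Members of the carrier family under other names followed no single direction. Ucp2, an uncoupling protein, had 93.8, 102 and 104 CPM in the 18 mo mice, 128, 201 and 224 CPM in the 21 mo mice and 115, 109 and 97.5 CPM in the O304 mice. Its 21 mo mice were above both other groups. The carrier homologues Mtch1 and Mtch2 of the outer membrane did not reach an unadjusted p under 0.05 in any comparison. Ucp1, the uncoupling protein of brown fat, stayed at or below 0.339 CPM in all libraries and was not tested, and Ucp3 at or below 0.349 CPM.

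The carrier median of a mouse and its proximal tubule markers are plotted together. In the 21 mo group the carrier median was -0.11, -0.42 and -0.72 in mice 1 to 3, in the order in which the summed proximal tubule markers were 30299, 7875 and 1639 CPM. The other 6 mice had medians of -0.06 to 0.10 at marker sums of 30696 CPM or more. At 21 mo 9 of 10 proximal tubule markers were fitted below 0 (3 at an unadjusted p under 0.05, against 12% of all genes). All 21 mo mice lay below all 18 mo mice for 4 of the 10, against 15.3% of all genes. For the rest mouse 1 lay within or above the range of the 18 mo mice. With O304 against saline 10 of 10 markers were fitted above 0 (1 at an unadjusted p under 0.05, against 8.27%). Kap, a kidney androgen-regulated protein, had 283005, 46230 and 3821 counts in mice 1 to 3 of the 21 mo group and 317632 or more in every other library. The part of proximal tubule cells in the carrier values was not tested.

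**Figure D5:**
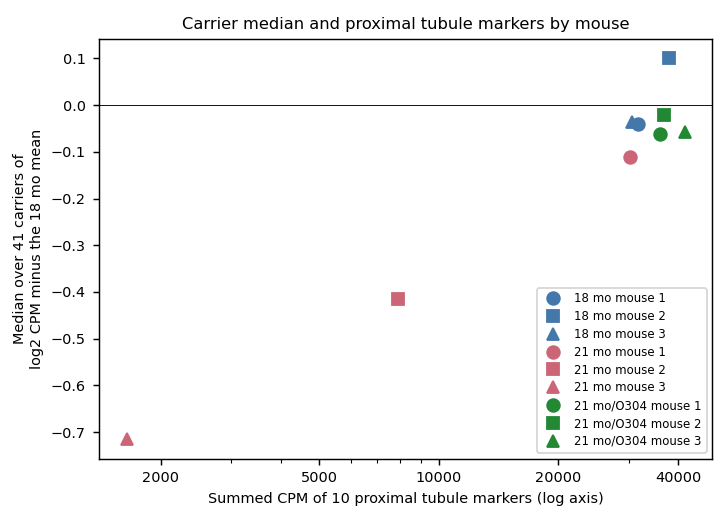
Median deviation of the 41 tested carriers from the 18 mo mean, in log2 CPM, against the summed CPM of 10 proximal tubule markers on a log axis, with 1 point per mouse. Kap is the largest part of this sum in every mouse but mouse 3 of the 21 mo group. Mice 2 and 3 of the 21 mo group lie apart at 7875 and 1639 CPM with medians of -0.42 and -0.72, and the other 7 mice lie between -0.11 and 0.10.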

How the data were processed

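Kidney RNA of 9 mice was sequenced, 1 library per mouse. Per the labels and methods, the authors aligned reads with HISAT2 2.0.5, and featureCounts 1.5.0-p3 assigned them to genes. Their processing notes name GRCm38 and mm10, and the treatment of strand and of reads that map to several places is not given in the sources used here. Counts were deposited as whole numbers, not normalized. FPKM, deposited beside them, are the scaling by the authors to gene length and library size, and served here to compare levels between genes and as an alternative test. Columns of group means, log2 fold changes and p-values that the authors made with DESeq2 1.20.0 were not used. All 47 members matched a RefSeq symbol of GRCm38.p6 and overlapped its position, 34 with an end within 10 bases.

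Genes were kept by filterByExpr (minimum count 10, minimum total 15), which left 15902. With TMM factors, all 9 libraries entered 1 quasi-likelihood fit of edgeR 4.0.16 (R 4.3.3) on 3 group means, which has 6 residual degrees of freedom. Tests were two-sided, with Benjamini-Hochberg adjustment over all genes tested and a threshold of 0.05. The SE of an edgeR log2 fold change was derived from its test. It is the absolute log2 fold change divided by the square root of the quasi-likelihood F statistic. CPM are TMM-normalized, and log2 CPM used a prior count of 2. Each mouse is a separate animal. The scripts were tested on simulated data. Alternatives were DESeq2 1.42.0, limma 3.58.1 (voom with sample quality weights, and trend on log2(FPKM + 1) at a mean FPKM of at least 0.5), upper-quartile factors, no filter beyond 1 count, a fit to just the 6 libraries at issue, a block for the replicate number, and leaving out each library.

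Members and lists were chosen with earlier results of these data known. Values in every library are given for members among the 10 smallest p of a comparison or the 8 highest mean FPKM, and for up to 4 genes of each list. Other members are named for a pattern, a pair, a neighbour or a low count only. Kap and Adipoq were chosen after their values were seen. Values of 1 member and 1 partner gene are not reported here, though both enter the counts and medians. No sequences were used here.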

Additional observations from a re-analysis of the deposited data

How the results depend on the processing

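For the 30 log2 fold changes printed, 540 alternative values were made. Of these, 470 kept their direction and side of the threshold, 70 kept their direction and passed it, and 0 reversed. Of 49 values of paralogue ratios 0 reversed, but these came only from comparisons without overlap between the groups. Leaving out a mouse could not reverse such a ratio, so only the ratios of FPKM could have done so. Values below come in the order 21 mo against 18 mo, then O304 against saline, then O304 against 18 mo. DESeq2 called 9, 6 and 1 carriers and 2283, 983 and 233 of all genes. Limma voom with sample weights called 27, 19 and 2 carriers and 8409, 6528 and 415 genes. With every gene of at least 1 count, 2, 1 and 0 carriers and 576, 17 and 0 genes passed. With only the 6 libraries compared, 0 carriers passed and 0, 0 and 22 genes. Upper-quartile normalization left all carrier counts at 0. Leaving out 1 library gave 0 to 19, 0 to 12 and 0 carriers, 0 to 4186, 0 to 3808 and 0 to 12 genes, and carrier medians of -0.54 to -0.29, 0.15 to 0.45 and -0.08 to 0.00. The highest counts came without mouse 1 of the 21 mo group in the first and second comparison, and the cause was not tested. Samples with the same replicate number correlated between -0.13 and 0.17 in their deviations, and those with different numbers between -0.26 and 0.20. With 3 mice per group these values cannot decide whether the numbers pair the mice. With the replicate block 0 carriers and 0 genes passed in each comparison. Chosen after seeing the data, mouse 1 as the only 21 mo library gave medians of -0.12, -0.0065 and -0.06, with 0 carriers and 3, 0 and 21 genes called, and its spread was assumed to be that of the other groups. DESeq2 on the 6 libraries compared, also added later, called 5, 4 and 4 carriers and 1213, 436 and 922 genes. The 6 members with at most 21 counts in any library could not be compared at this depth.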
